A study of Mus musculus with 6 samples.

Results

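Apod, which encodes apolipoprotein D, showed the largest rise of all genes measured when the mouse line MC3T3-E1 was taken through osteoblast induction, and it is described here with 5 other carriers of small lipids and related secreted proteins. The set of 6 genes was chosen by the differentiated minus undifferentiated difference of Apod in these same arrays, and the other members are its lipocalin relatives Lcn2, Ptgds and Rbp4 and the apolipoprotein genes Apoe and Clu. Values of the members in this comparison are therefore a description and carry no test. Of the 19938 genes that a probe set names alone, all 6 members were found, each on a single probe set. MC3T3-E1 is a pre-osteoblast line derived from newborn C57BL/6 mouse calvaria, the flat bone of the skull roof. The differentiated group held 3 samples of confluent cells kept for 14 days in DMEM with 10% serum, dexamethasone at 0.1 µM, ascorbic acid-2-phosphate at 0.2 mM, β-glycerophosphate at 10 mM and sodium pyruvate at 1 mM. The undifferentiated group held 3 samples grown in α-MEM free of ascorbic acid with 10% serum. All samples come from a single line, and medium, added compounds and time at confluence changed together, so their parts cannot be told apart. The replicates are described as independent, with no word on whether cultures or only extracts were separate, so p-values measure only the spread between these samples, which may be technical.

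Each value is a log2 expression value from which the probe set's median over the 6 arrays was subtracted. A value of 1 lies 2-fold above that median, and a level cannot be read, so no member can be called expressed or absent and no gene's level can be set against another's. With 6 arrays the median lies midway between the third and the fourth value, so where the groups do not overlap the nearest arrays of the groups stand at mirror values. In such bulk samples more cells expressing a gene and more RNA per cell cannot be told apart. Array medians lay between -0.00499 and 0.00838, and the median log2 difference over all genes was 0.02. A gene was called at a limma adjusted p under 0.05. Calls of members, and the differences that would have been called, describe the fit over all genes and are no test of the members.

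Lipocalins are small secreted proteins folded into a β-barrel that holds a hydrophobic ligand. Apolipoprotein D binds arachidonic acid and progesterone, and despite its name it belongs to the lipocalin family rather than to the family of apolipoprotein E. Apolipoprotein E and clusterin, also known as apolipoprotein J, do not have the lipocalin barrel: the first carries lipid on lipoproteins to endocytic receptors, and the second is an extracellular chaperone. The label of the set thus covers 4 lipocalins and 2 apolipoproteins of other structure.

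Apod (probe set 10439009) stood at 3.55, 3.62 and 3.37 on the differentiated arrays, against -3.37, -3.59 and -3.46 on the undifferentiated arrays. The lowest differentiated array lay 6.74 above the highest undifferentiated array, so the groups were far apart. Group means were 3.51 ± 0.13 in differentiated and -3.47 ± 0.11 in undifferentiated cells (SD, n = 3 each). Their log2 difference of 6.99 ± 0.08 (SE) is 127-fold and 58.6 times the pooled SD of the replicates. It ranked 1 among the 19938 genes, and just below it stood the transglutaminase gene F13a1 at 6.85 and the collagenase gene Mmp13 at 5.64. After quantile normalization of the centred values, which gives the extremes of every array a common set of values, the difference of Apod was 5.24.

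The 250 bases before the annotated start are shown for Apod and Lcn2, the lipocalins with the larger differences, because these windows were searched for motifs of factors active in induced or stressed cells. Both come from RefSeq, build GRCm38.p6, minus strand, and read 5′ to 3′ toward the start. Capitals mark the stretch that matches the NF-κB pattern (GGG and CC with 5 bases between, on either strand).
Apod, chr16:31314809-31315058: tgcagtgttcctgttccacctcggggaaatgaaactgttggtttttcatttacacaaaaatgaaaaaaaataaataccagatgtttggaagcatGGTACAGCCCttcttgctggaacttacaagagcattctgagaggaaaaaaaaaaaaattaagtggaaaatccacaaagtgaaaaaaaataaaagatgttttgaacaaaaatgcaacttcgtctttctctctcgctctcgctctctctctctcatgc
Lcn2, chr2:32387740-32387989: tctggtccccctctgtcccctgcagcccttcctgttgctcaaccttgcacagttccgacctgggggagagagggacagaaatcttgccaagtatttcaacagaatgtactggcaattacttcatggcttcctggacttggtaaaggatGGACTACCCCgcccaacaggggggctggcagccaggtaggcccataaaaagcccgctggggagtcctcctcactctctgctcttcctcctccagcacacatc
The match lies at -156 from the start in Apod and at -102 in Lcn2. The same pattern occurs in 50.8% of the 32851 promoter windows of 300 bases in the table, so its presence sets neither gene apart. A window for at least 1 start was matched for 5 members, all but Clu, and the search also took in the 50 bases after the start. Neither window of Apod or Lcn2 held the glucocorticoid receptor site (AGAACA and TGTTCT with 3 bases between, in 0.00913% of windows) or its degenerate form (GNACA and TGTNC with 3 bases between, in 0.475%). The patterns TTGCNNCAA of C/EBP factors (2.08% of windows), TGANTCA of AP-1 (7.81%), CACGTG of E-box factors (7.15%) and the LXR direct repeat (AGGTCA repeated after 4 bases, 0.0152%) were not found there either. Among the other members, the windows of Ptgds and Rbp4 held TGANTCA, at -35 and -142. These letters were searched on both strands, and a missing match speaks only of these windows.

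Lcn2 encodes lipocalin 2, which binds bacterial siderophores and so withholds iron, and which is known as an acute-phase protein and as a hormone secreted by osteoblasts. Lcn2 (probe set 10481627) stood at 0.366, 0.532 and 0.328 on the differentiated arrays, against -0.606, -0.605 and -0.328 on the undifferentiated arrays. Undifferentiated replicate 3 was nearest to the differentiated arrays, and the groups did not overlap. Means were 0.41 ± 0.11 in differentiated and -0.51 ± 0.16 in undifferentiated cells (SD, n = 3 each), a log2 difference of 0.92 ± 0.09 (SE) or 1.89-fold. Without undifferentiated replicate 3 the difference was 1.01.

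Ptgds encodes lipocalin-type prostaglandin D synthase, an enzyme with the lipocalin barrel that also carries retinoids. Ptgds (probe set 10480734) stood at -0.0323, 0.0150 and 0.227 on the differentiated arrays, against -0.126, 0.215 and -0.0150 on the undifferentiated arrays. The groups overlapped, with 1 high array in each. The log2 difference was 0.05 ± 0.10 (SE), well within the pooled SD of 0.16, and it was -0.03 without differentiated replicate 3 or without undifferentiated replicate 1. At this SE an observed difference of at least 0.29 would have been called, so a true difference near or below that could have been missed.

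Rbp4 encodes the plasma carrier of retinol. Rbp4 (probe set 10467319) stood at -0.0270, 0.121 and 0.0947 on the differentiated arrays, against 0.0128, -0.0178 and -0.0128 on the undifferentiated arrays. Differentiated replicate 1 lay below all undifferentiated arrays and the other two lay above them. The log2 difference was 0.07 ± 0.06 (SE). Replicates of Rbp4 agreed more closely than those of most genes (pooled SD 0.057, at the 26.0th percentile of all genes), and a difference of 0.17 would have been called.

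Apoe (probe set 10560624) stood at 0.329, -0.00165 and 0.216 on the differentiated arrays, against -0.341, 0.00165 and -0.0333 on the undifferentiated arrays. The groups met at differentiated replicate 2 and undifferentiated replicate 2 (a gap of -0.0033 between the lowest differentiated and the highest undifferentiated array). Means were 0.18 ± 0.17 in differentiated and -0.12 ± 0.19 in undifferentiated cells (SD, n = 3 each), a log2 difference of 0.31 ± 0.11 (SE) or 1.24-fold. This is just under the 0.32 that would have been called at this SE. Apoe was called without differentiated replicate 2 (0.40), after quantile normalization (0.30) and after cyclic loess (0.32). It was not called under the other alternatives, and without undifferentiated replicate 1 its difference was 0.20. Its replicates scattered more than those of most genes, at the 95.3rd percentile of the pooled SD.

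Clu (probe set 10416057) stood at 0.553, 0.156 and 0.128 on the differentiated arrays, against -0.187, -0.128 and -0.267 on the undifferentiated arrays. Differentiated replicate 1 was far above the other two, yet the groups did not overlap. Means were 0.28 ± 0.24 in differentiated and -0.19 ± 0.07 in undifferentiated cells (SD, n = 3 each), a log2 difference of 0.47 ± 0.11 (SE) or 1.39-fold. Without differentiated replicate 1 the difference was 0.34.

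**Figure D1:**
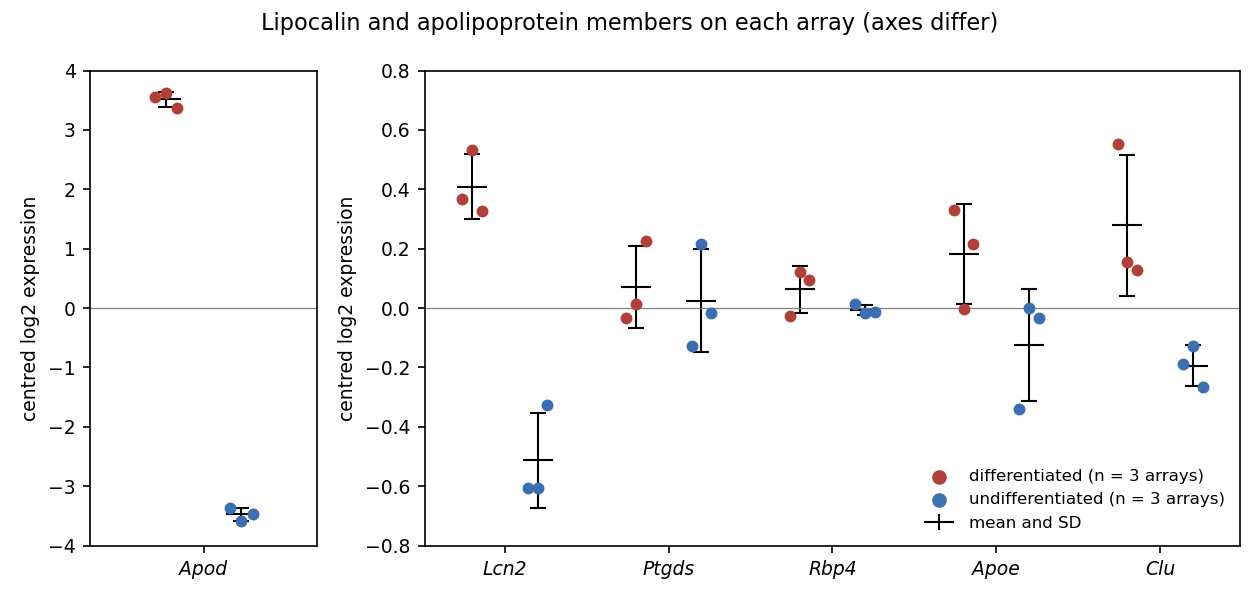
Centred log2 expression (vertical axes, which differ in scale between the panels) of the 6 members on each array, with points for arrays and bars for the mean and SD of 3 arrays per group. Apod stands near 3.51 in differentiated and near -3.47 in undifferentiated cells, Lcn2 and Clu separate by less than 1, and Ptgds, Rbp4 and Apoe overlap.

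All 6 members had a positive difference. In size the order was Apod, Lcn2, Clu, Apoe, Rbp4 and Ptgds, with Lcn2 and Clu, and Apoe and Rbp4, further apart than the sum of their SEs. Clu and Apoe, and Rbp4 and Ptgds, lay within that sum. In the fit over all genes 3 members were called higher, 0 lower and 3 were not called, where 35.5% of all genes were called, 16.4% higher and 19.1% lower. The groups of 3 arrays did not overlap for 3 members, and for 46.2% of all genes. Since Apod chose the set, nothing is read from these counts. A larger difference than that of Lcn2 was found in 2.94% of genes, than that of Clu in 6.99% and than that of Apoe in 11.3%.

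**Figure D2:**
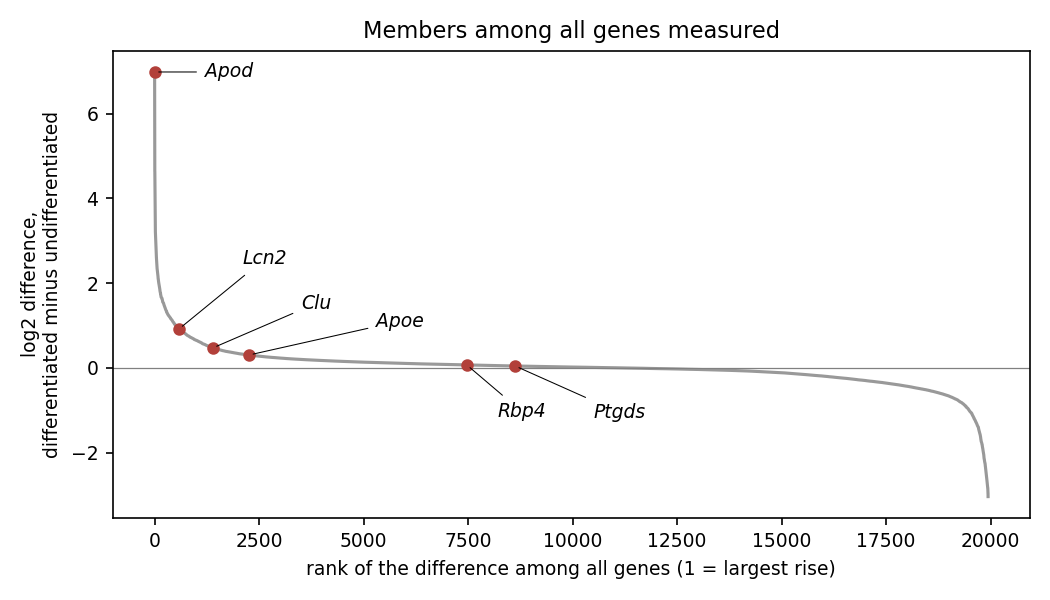
The log2 difference (vertical axis, differentiated minus undifferentiated) of all 19938 genes against its rank (horizontal axis, 1 for the largest rise), with the 6 members as red points. Apod is at the very top, Lcn2, Clu and Apoe lie on the shoulder at 0.92, 0.47 and 0.31, and Rbp4 and Ptgds lie on the flat part near 0.

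Few of the lipocalins outside the set were called. Of 22 measured, 3 rose, none fell and 19 were not called, 13.6% called against 35.5% of all genes, and their median log2 difference was 0.02, as over all genes. The rises were small: C8g, the lipocalin subunit of complement component 8, by 0.27 ± 0.09 (SE, adjusted p = 0.0396), Lcn9 by 0.25 ± 0.08 (adjusted p = 0.0293) and Lcn8 by 0.18 ± 0.06 (adjusted p = 0.0407). Lcn8 and Lcn9 are known from the epididymis. Differences over the list ran between -0.05 and 0.27, below those of Apod and Lcn2. The count of 3 was 0 without differentiated replicate 1 or undifferentiated replicate 1, and 1 without differentiated replicate 2, differentiated replicate 3 or undifferentiated replicate 2. Mup, Orm and Obp genes have near-identical copies, so their probe sets can read several genes. A further 7 genes of the list were not analysed here.

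The intracellular relatives of the lipocalins hold fatty acids or retinoids in a related barrel, and 3 of 14 rose, 1 fell and 10 were not called (28.6% called, median 0.04). Fabp3, the heart-type fatty acid binding protein, stood at 0.771, 0.724 and 0.642 on the differentiated arrays, against -1.13, -0.892 and -0.642 on the undifferentiated arrays. It was 3.03-fold higher (1.60 ± 0.11, adjusted p = 5.27e-06), and both of its probe sets showed the rise (1.48 and 1.73). Fabp5, the epidermal type, moved the other way. It stood at -0.620, -0.675 and -0.567 on the differentiated arrays, against 0.639, 0.751 and 0.571 on the undifferentiated arrays, 2.42-fold lower (-1.27 ± 0.06, adjusted p = 6.86e-07), with -1.30 and -1.25 on its probe sets. The cellular retinoic acid carrier Crabp2 (0.97 ± 0.08) and the adipocyte type Fabp4 (0.46 ± 0.06) also rose. Members of the family thus moved in opposite directions, with the groups apart in all 4.

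The list of lipocalin receptors also holds Ptgdr and Ptgdr2, which bind prostaglandin D2 and are counted again in the prostaglandin D2 list below. Of its 10 genes, 1 rose and 9 were not called (10% called, median 0.07). Cubn, the endocytic receptor cubilin, rose by 0.32 ± 0.06 (adjusted p = 0.00274). Basigin (Bsg), reported as a receptor for human apolipoprotein D, was at 0.06 ± 0.07 (adjusted p = 0.586). Slc22a17, a receptor for lipocalin 2, was at 0.21 ± 0.08 (adjusted p = 0.0615). Stra6, the retinol channel that docks Rbp4, was at 0.15 ± 0.08 (adjusted p = 0.214), and at -0.014 after cyclic loess. Without undifferentiated replicate 3 the list had 3 called, among them Slc22a17 (0.28) and Stra6 (0.24), and without differentiated replicate 2 it had 2.

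Among the acute-phase genes that share inducers with Lcn2, haptoglobin rose most. Of 17 measured, 6 rose, 1 fell and 10 were not called (41.2% called, median 0.09). Hp, which encodes the haemoglobin scavenger haptoglobin, stood at 1.26, 1.12 and 1.23 on the differentiated arrays, against -1.22, -1.19 and -1.12 on the undifferentiated arrays. It was 5.21-fold higher (2.38 ± 0.06, adjusted p = 2.10e-08), a larger difference than that of Lcn2. Transcription regulators known to act on Lcn2 rose as well. Cebpd was at 0.516, 0.539 and 0.532 in differentiated and at -0.667, -0.559 and -0.516 in undifferentiated cells, 2.16-fold higher (1.11 ± 0.06, adjusted p = 8.54e-07). Cebpb rose by 0.77 ± 0.06 (adjusted p = 1.66e-05) and Nfkbiz, an atypical IκB protein that works with NF-κB in the nucleus, by 0.56 ± 0.08 (adjusted p = 7.49e-04). The NF-κB inhibitor Nfkbia (0.80 ± 0.07) and the chemokine Ccl2 (0.72 ± 0.12) rose too, while the chemokine Cxcl5 fell by 0.19 (SE 0.06, adjusted p = 0.0262), a call that was lost without any 1 of differentiated replicates 2 and 3 and undifferentiated replicates 1 and 2. Il6 (-0.17 ± 0.09, adjusted p = 0.179), Saa3 (0.03 ± 0.07, adjusted p = 0.759) and Orm1 (0.09 ± 0.06, adjusted p = 0.348), other acute-phase markers, were not called.

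Iron handling, the process that lipocalin 2 bears on, had many calls: 8 of 15 genes rose, 3 fell and 4 were not called (73.3% called, median 0.32). The transferrin receptor gene Tfrc stood at -1.03, -0.729 and -0.956 on the differentiated arrays, against 0.825, 0.928 and 0.729 on the undifferentiated arrays, 3.32-fold lower (-1.73 ± 0.09, adjusted p = 7.09e-07). The iron response regulators Ireb2 (-0.50 ± 0.06) and Aco1 (-0.40 ± 0.06) fell too. Iron storage genes went up, Fth1 by 0.63 ± 0.05 and Ftl1 by 0.56 ± 0.06, and both have processed copies in the genome that their probe sets may read. Bdh2, an enzyme linked to the synthesis of a mammalian siderophore, stood at 0.467, 0.539 and 0.669 in differentiated and at -0.720, -0.467 and -0.534 in undifferentiated cells, 2.19-fold higher (1.13 ± 0.08, adjusted p = 6.54e-06). The ferrireductase Steap3 (1.51 ± 0.06) and the haem oxygenase Hmox1 (1.28 ± 0.10) had the largest rises of the list. The other genes of the list that rose were Fbxl5 (0.52 ± 0.07), Slc11a2 (0.48 ± 0.05) and Ncoa4 (0.32 ± 0.06). Mmp9, whose protein forms a complex with lipocalin 2 in humans, was at 0.17 ± 0.06 (adjusted p = 0.0625).

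Of the genes around Ptgds, the largest rise was that of Ptgs2. Ptgs2, the inducible cyclooxygenase that supplies prostaglandin H2, stood at 1.19, 0.863 and 1.01 on the differentiated arrays, against -0.973, -0.863 and -1.14 on the undifferentiated arrays. It was 4.04-fold higher (2.01 ± 0.10, adjusted p = 5.61e-07). Pla2g4a, the cytosolic phospholipase that releases arachidonic acid, fell by 0.54 (SE 0.07, adjusted p = 1.83e-04), and the secreted phospholipase Pla2g5 rose by 0.24 ± 0.06 (adjusted p = 0.0119). The haematopoietic synthase Hpgds was at 0.01 ± 0.06 (adjusted p = 0.891), with the sign turned after cyclic loess. In all 2 of 10 genes of the prostaglandin D2 route rose, 1 fell and 7 were not called, the receptor Ptgdr among them (0.12 ± 0.05, adjusted p = 0.106). The list's median was 0.05, with 30% called.

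Of 11 genes of retinol carriage around Rbp4, 2 rose and 9 were not called (18.2% called, median 0.03). Crabp2 rose as above, and Dhrs3, which reduces retinaldehyde back to retinol, rose by 0.36 ± 0.07 (adjusted p = 0.00391). Transthyretin (Ttr), which carries Rbp4 in plasma, was at -0.04 ± 0.07 (adjusted p = 0.730).

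In the list of apolipoprotein E and clusterin receptors 4 of 16 genes were higher, 4 lower and 8 not called (50% called, median 0.04). The list also holds Lrpap1 and Mylip, which are not receptors, and Lrpap1 (0.30 ± 0.06) was among the genes called higher. After cyclic loess the list had 3 higher and 5 lower. Vldlr, which also serves as a reelin receptor, stood at -0.544, -0.567 and -0.598 on the differentiated arrays, against 0.671, 0.544 and 0.815 on the undifferentiated arrays, 2.37-fold lower (-1.25 ± 0.07, adjusted p = 1.74e-06). Lrp8, the other reelin receptor, also fell (-0.55 ± 0.08, adjusted p = 4.57e-04). The large endocytic receptor Lrp1 rose by 0.31 ± 0.07 (adjusted p = 0.00560). Lrp5 (1.31 ± 0.07) and Lrp10 (0.83 ± 0.06) rose more, but Lrp5 is known mainly as a Wnt co-receptor.

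Of 17 genes of cholesterol efflux and lipoprotein remodelling, 8 rose, 3 fell and 6 were not called (64.7% called, median 0.21). Abca1, the exporter that loads cholesterol and phospholipid onto apolipoproteins, stood at 0.952, 0.790 and 0.619 on the differentiated arrays, against -0.654, -0.758 and -0.619 on the undifferentiated arrays. It was 2.76-fold higher (1.46 ± 0.09, adjusted p = 1.84e-06). The endothelial lipase Lipg (1.43 ± 0.08), the phospholipid transfer protein Pltp (1.36 ± 0.08) and the lysosomal cholesterol carrier Npc2 (1.07 ± 0.05) rose as well. Nr1h3, the oxysterol receptor LXRα, rose by 0.35 ± 0.07 (adjusted p = 0.00481). The exporter Abcg1 was at 0.21 ± 0.12 (adjusted p = 0.238) and Srebf1 at 0.13 ± 0.06 (adjusted p = 0.128).

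Other apolipoprotein genes mostly were not called: 2 of 15 rose, 1 fell and 12 were not called (20% called, median 0.07). Apol6 rose by 1.01 ± 0.11 (adjusted p = 1.12e-04) and Apol8 by 0.48 ± 0.10 (adjusted p = 0.00497), both of the intracellular apolipoprotein L family, and the receptor gene Apobr fell by 0.50 (SE 0.12, adjusted p = 0.00817). Without undifferentiated replicate 3 the list had 4 higher. In the terminal complement list, whose attack complex clusterin restrains, 1 of 12 rose (C8g) and 1 fell, the regulator Cd46 (-0.28 ± 0.09, adjusted p = 0.0439), with 10 not called (16.7% called, median 0.04). Both calls were lost without any 1 of differentiated replicates 1 and 3 and undifferentiated replicates 1 and 2.

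**Figure D3:**
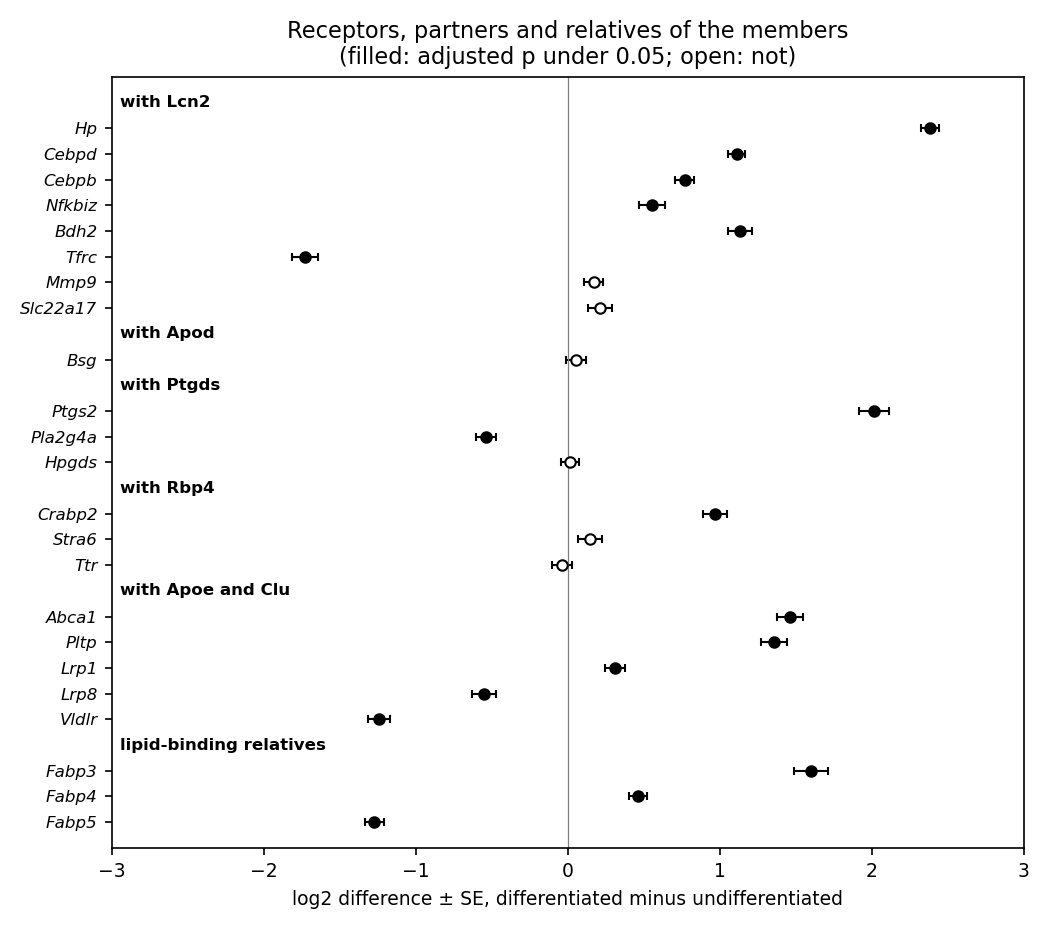
The log2 difference ± SE (horizontal axis, differentiated minus undifferentiated, 3 arrays per group) of named receptors, partners and relatives of the members, with filled points for genes called at an adjusted p under 0.05. Hp, Ptgs2, Abca1 and Fabp3 lie well above 0, Tfrc, Fabp5 and Vldlr well below, and the receptor genes Bsg, Slc22a17 and Stra6 are open points near 0.

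**Figure D4:**
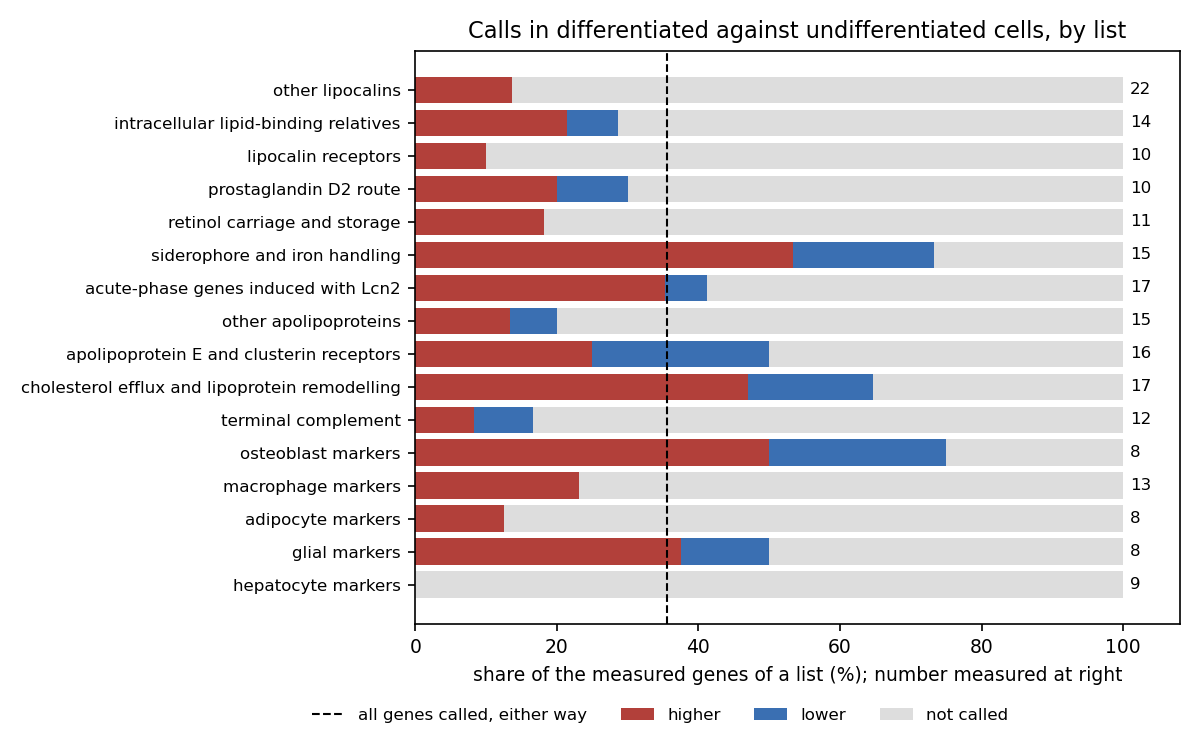
The share of measured genes (horizontal axis, %) called higher, called lower or not called in each list, with the number measured at right and a dashed line at the 35.5% of all genes called. Osteoblast markers, iron handling, cholesterol efflux, apolipoprotein E and clusterin receptors, glial markers and acute-phase genes exceed the line, and the other 10 lists, among them the other lipocalins and lipocalin receptors, lie below it. Acute-phase genes (41.2% called) are close to the line. The only lower call of that list, and that of the glial markers, was lost when some single arrays were left out.

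Markers of the labelled cell type and of other cells that make these proteins moved as follows. Of 8 measured osteoblast markers 4 rose and 2 fell (75% called, median 0.12). Ibsp (3.12 ± 0.09), Dmp1 (3.44 ± 0.20), Alpl (0.96 ± 0.08) and Sost (0.29 ± 0.08) rose. The call of Sost (limma adjusted p = 0.0216) was lost after cyclic loess. It was also lost without any 1 of differentiated replicate 3 and undifferentiated replicates 1 and 2. Col1a1 (-0.40 ± 0.07) and Sp7 (-0.40 ± 0.07) fell, and Phex (-0.05 ± 0.05) and Col1a2 (-0.13 ± 0.06) were not called. Runx2, Bglap, Bglap2 and Spp1 were not analysed here. Of 13 macrophage markers 3 rose (Fcer1g 0.53 ± 0.07, Cd68 0.44 ± 0.10 and Cd14 0.42 ± 0.05), with a median of 0.07. That is 23.1% called, against 35.5% of all genes called, 16.4% of them higher. Adgre1 was at -0.03 ± 0.06, Csf1r at 0.07 ± 0.09 and Ptprc at 0.10 ± 0.06. Among 8 adipocyte markers 1 rose, Fabp4 (12.5% called), with a median of 0.03, and Adipoq was at -0.11 ± 0.07. Of 8 glial markers, which include cells known for high Apod, 3 rose and 1 fell (50% called), with a median of 0.13. S100b (1.45 ± 0.11), Pmp22 (1.30 ± 0.07) and Mbp (0.30 ± 0.06) rose and Mog fell by 0.21 (SE 0.06), a call that was lost without differentiated replicate 1 or 2 or undifferentiated replicate 3. Sox10 (0.10 ± 0.06) and Gfap (0.15 ± 0.07) were not called. Of 9 hepatocyte markers limma called 0, and 0 had an unadjusted p under 0.05. Summed levels and absent markers cannot be given from centred values, and the part of other cells in the members' values was not tested.

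The genes whose 6 centred values lay closest to those of Apod, by Euclidean distance over the arrays, were F13a1 (0.300), Mmp13 (1.67), Lum (2.18), Nr4a1 (2.86) and Gpnmb (2.90). F13a1 was near, and the others lay more than 1 away. In the same order these genes hold ranks 2 to 6 of the difference over all genes. Apod was chosen for its rank of 1, so the list repeats that ranking and nothing further is read from it. Closest to Lcn2 were the actin-binding protein gene Synpo (0.0686), the alkaline phosphatase gene Alpl (0.111) and the zinc finger gene Plagl1 (0.124). The nearest to Clu were Tomm34 (0.152), Otulinl (0.163) and Slc39a12 (0.165), and the nearest to Apoe were Dok2 (0.101), Tnni2 (0.123) and Isl2 (0.132). Fcer2a (0.0995), Csrnp3 (0.115) and Slfn8 (0.129) lay nearest to Ptgds, and Pcsk5 (0.0502), Zfp467 (0.0554) and Ildr1 (0.0609) nearest to Rbp4. Predicted or unnamed loci and the members themselves were passed over in these searches. All points share the same 6 arrays in 2 groups, and 545 of the remaining genes had a Pearson coefficient of at least 0.99 with Apod.

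Genes beside the members on the chromosomes were called at about the share of all genes. Among the 2 protein-coding genes on each side of each member, 23 of 24 were measured, of which 4 were higher, 3 lower and 16 not called, where 35.5% of all genes were called. Ppp1r2, beside Apod, rose by 0.52 ± 0.07 (adjusted p = 4.91e-04), while Bdh1 on its other side was at 0.02 ± 0.05 (adjusted p = 0.827). Beside Apoe, Tomm40, a subunit of the mitochondrial import pore, fell by 0.65 (SE 0.09, adjusted p = 3.03e-04) and the apolipoprotein gene Apoc1 was at 0.00 ± 0.06 (adjusted p = 0.989). Ptgds lies next to the lipocalin genes Lcn12 (0.06 ± 0.07, adjusted p = 0.529) and C8g. Ptges2 and 1110008P14Rik, which flank Lcn2, were at -0.12 ± 0.08 (adjusted p = 0.333) and 0.14 ± 0.06 (adjusted p = 0.130). Further out beside Lcn2, Slc25a25, a mitochondrial carrier gene, rose by 0.52 ± 0.06 (adjusted p = 1.32e-04). The largest neighbour difference lay by Rbp4, where Cep55, a gene of the last step of cell division, fell by 2.54 (SE 0.09, adjusted p = 1.33e-07). Fra10ac1, on the other side of Rbp4, fell by 0.54 (SE 0.08, adjusted p = 5.80e-04), and the nearer genes Ffar4 (0.12 ± 0.07) and Pde6c (0.06 ± 0.06) were not called. Neighbours of Clu were not called apart from Gulo (0.17 ± 0.05, adjusted p = 0.0323).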

How the data were processed

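Total RNA of 3 differentiated and 3 undifferentiated MC3T3-E1 samples was biotin-labelled, and each sample was hybridized to its own 1-colour array. Titles gave the group and replicate number of each. The authors deposited log2 expression values that the submitters' processing notes attribute to RMA, in a version not given in the sources used here. That each of the 28856 probe sets also has a median of 0 (to within 1e-06) was found in the values; this keeps differences between arrays but removes levels, and dim probe sets could not be filtered. Precision is limited by having 3 arrays per group. Probe sets naming a single gene (21789, of which 21698 matched a RefSeq gene ID of assembly GRCm38.p6, from which symbols were updated) were averaged per gene, and those naming several (1621) or none (5446) were left out.

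Differentiated minus undifferentiated was fitted over all 19938 genes with limma 3.58.1 in R 4.3.3 (lmFit, eBayes, two-sided) without the replicate number. Benjamini-Hochberg adjusted p-values, taken over every gene tested, were called under 0.05. Errors of differences are moderated standard errors. The fit was tested on simulated data. The members and the 16 gene lists were chosen with earlier results of these data known. Named list genes are the 4 largest calls of each list (all, where at most 5 were called) and receptors or partners of the members. Others (Fth1, Ftl1, Ireb2, Aco1, Slc11a2, Fbxl5, Ncoa4, Ccl2, Cxcl5, Il6, Saa3, Orm1, Ptgdr, Abcg1, Srebf1, Sost, Sp7, Phex, Col1a2, Sox10, Gfap, Adgre1, Csf1r, Ptprc, Adipoq) were chosen after their values were seen. The comparison with genomic neighbours was added after the data were seen. Motifs were sought as exact matches on both strands. Alternatives tried were a replicate block, median, quantile and cyclic loess scaling, the lowest-numbered probe set per gene, each array left out, and Pearson correlation in place of distance.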

Additional observations from a re-analysis of the deposited data

How the results depend on the processing

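Calls in all genes numbered 2675 to 3656 higher and 3297 to 3867 lower when each array was left out, against 3270 and 3800 with all arrays, and 3328 and 3834 with the replicate block. Deviations of same-numbered samples from their group means correlated at -0.00133, 0.0692 and 0.162, not all above 0.1, so the numbers were not taken as pairs. Lcn8 lost its call under the block (limma adjusted p = 0.0538) and after cyclic loess (adjusted p = 0.159), where its difference was 0.18 and 0.11. The difference of Apod was 5.24 after quantile normalization and 6.93 to 7.06 when each array was left out. After cyclic loess osteoblast markers numbered 3 higher and 1 lower, without the calls of Sost and Sp7. Higher osteoblast markers numbered 3 to 4 when each array was left out. With Pearson correlation in place of distance, the nearest genes shared 0 of 5 for Apod, 1 of 3 for Lcn2, Ptgds and Clu, and 0 of 3 for Rbp4 and Apoe. When each array was left out, counts ran from 0 to 3 for higher lipocalins, 1 to 3 for higher lipocalin receptors, 2 to 4 for higher apolipoproteins, and 0 to 1 for higher and for lower terminal complement genes, lower glial markers and lower acute-phase genes. Changes of sign were looked up for the members and for the named list genes picked by rule. They were not looked up for the genes chosen after their values were seen, or for the genomic neighbours. Among the uncalled genes looked up, those that turned sign were Ptgds (-0.03 to 0.14 with each array left out), Hpgds (-0.011 after cyclic loess, -0.013 to 0.061 with each array left out), Stra6 (-0.014 after cyclic loess) and Ttr (-0.088 to 0.012 with each array left out). Causes were not tested. Signal over background is unknown for every gene.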
